A study of Rattus with 6 samples.

Results

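The genes described here set which fuel a heart muscle cell burns. They are 9 of the 23092 genes listed in the count files of cardiomyocytes isolated from rat ventricles. They were chosen by name for their roles, with earlier results of these data known. Ppara (ENSRNOG00000021463) and Ppargc1a (ENSRNOG00000004473) encode regulators of transcription. Cpt1a (ENSRNOG00000014254) and Cpt1b (ENSRNOG00000010438) act on fatty acid entry into mitochondria, Ucp3 (ENSRNOG00000017716) is a mitochondrial carrier, and Pdk4 (ENSRNOG00000009565) restrains pyruvate use. Slc2a4 (ENSRNOG00000017226), Slc2a1 (ENSRNOG00000007284) and Hk2 (ENSRNOG00000006116) bring in glucose and phosphorylate it. The files list Ensembl identifiers without names, so each symbol was taken as paired with its identifier, and the pairing could not be checked against the gene table at hand.

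The adult heart draws most of its energy from fatty acids and turns partly to glucose under load, in the fetal state and in some forms of failure. PPARα, the product of Ppara, is a nuclear receptor activated by fatty acids, and PGC-1α, the product of Ppargc1a, is a coactivator that works with it and drives mitochondrial gene expression. Pdk4, Ucp3 and both Cpt1 genes are well-known targets of this receptor.

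RNA was measured in 3 libraries from control rats and 3 from rats kept at 4 g in a centrifuge for 14 days, 8 hours a day. All 6 came from male wild-type Wistar rats aged 8 weeks, and the control rats had no hypergravity. The labels do not say whether a library is a single animal, so p-values measure the spread between these libraries, which may be partly technical. The question was whether hypergravity changed transcript levels in these cells.

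The total on genes ran from 24440690 to 45497422 counts. The 3 libraries above 30000000 counts were hypergravity libraries 1 and 2 and control library 3. In these the 10 most abundant genes took from 52.5 to 60.5% of the counts, and in hypergravity library 3 and control libraries 1 and 2 they took from 70.2 to 73.4%. Depth and this share therefore moved together, and they crossed the groups unevenly. Marker genes of endothelial cells, fibroblasts and other cell types were not analysed here, because no table paired their names with the identifiers, and the label of the cells was not checked for the same reason. In such bulk RNA, fewer cells of a type and less RNA per cell cannot be told apart.

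All 9 genes were expressed in each of the 6 libraries and passed the filter on low counts. None of them passed the test between hypergravity and control. With edgeR's quasi-likelihood test and Benjamini-Hochberg adjustment over 11905 genes, 0 of 9 were called in either direction at an adjusted p-value under 0.05, where 0.0336% of all genes tested were called. At an unadjusted p-value under 0.05 the count was also 0 of 9, beside 7.35% of all genes that were higher and 6.22% that were lower. DESeq2 likewise called 0 of 9, beside 1.39% of genes higher and 1.23% lower at an adjusted p-value under 0.05. The log2 fold change was above 0 for 6 genes and below 0 for 3, with a median of 0.10 against -0.02 over all genes tested. The median size of the change, regardless of sign, was 0.27 for the 9 genes and 0.25 for all genes.

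Levels below are counts brought to a common library size (CPM) and scaled by the trimmed mean of M values (TMM), so that a gene can be compared between libraries. They are not divided by gene length and do not rank genes against each other. The raw counts behind them ran from 4661 to 21048 per library for Cpt1b, from 3585 to 15985 for Slc2a4 and from 1655 to 7880 for Pdk4. Hk2 had from 404 to 3988 counts, Cpt1a from 346 to 2342, Ppargc1a from 448 to 1887 and Ppara from 245 to 1530, while Slc2a1 had from 165 to 702. Counting error alone was therefore at most 15.6% of a value to either side for each gene but Ucp3 (95% Poisson interval).

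**Figure D1:**
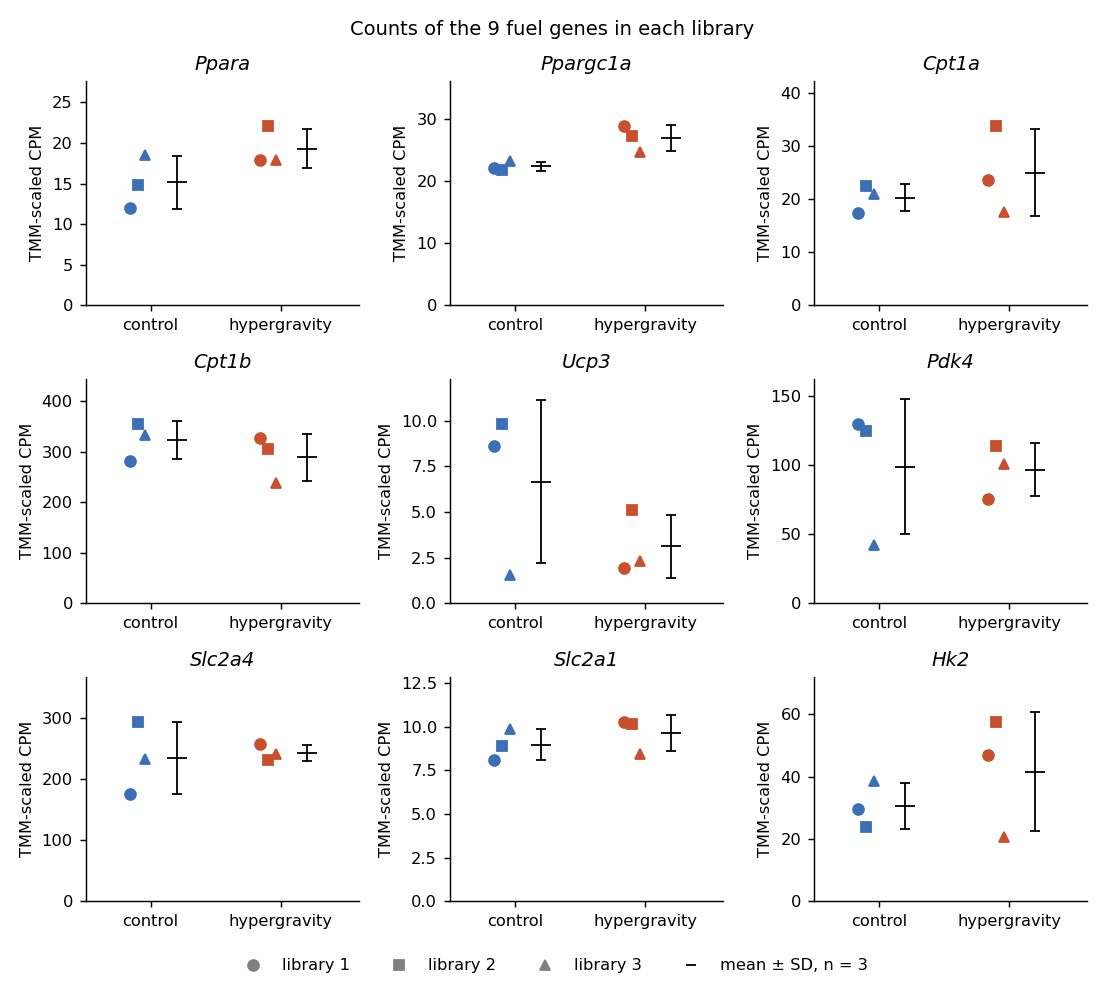
TMM-scaled CPM of the 9 fuel genes in each control and hypergravity library, with the mean and SD of each group (n = 3) beside the points. Only Ppargc1a has its groups apart, from 24.6 to 28.8 against 21.8 to 23.2, while Pdk4 and Ucp3 have the largest coefficients of variation within the control group (49.4 and 67.2%).

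Among the regulators, Ppargc1a had the lowest coefficient of variation of the 9 genes within each group except for Slc2a4 within hypergravity. Its level was 28.8, 27.3 and 24.6 CPM in hypergravity libraries 1, 2 and 3 and 22.03, 21.8 and 23.2 CPM in control libraries 1, 2 and 3. Each hypergravity library stood above each control library, with means of 26.9 ± 2.14 (SD, n = 3) and 22.3 ± 0.761 (SD, n = 3). The groups did not overlap in this direction for 11.3% of all genes and in the other for 10.5%, so that 1 of 9 higher and 0 of 9 lower are not above these shares. The fold change was 1.20 (95% interval 0.976 to 1.49), with an adjusted p-value of 0.417 in edgeR and 0.488 in DESeq2. The unadjusted p-value was 0.0754.

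Ppara had a similar difference with a wider spread. It measured 17.9, 22.1 and 17.9 CPM in hypergravity libraries 1, 2 and 3. Control libraries 1 and 2 were lower, at 12.05 and 14.8 CPM, and control library 3, at 18.6 CPM, was above 2 of the 3 hypergravity libraries. The fold change was 1.27 (95% interval 0.944 to 1.72, adjusted p = 0.445 in edgeR). The log2 fold change moved from 0.35 to 0.53 without control library 3 and to 0.21 without control library 1 (adjusted p = 0.435 and 0.743 in edgeR).

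CPT1 is the enzyme that couples long-chain fatty acids to carnitine for transport into mitochondria, and Cpt1b encodes the muscle form. Cpt1b measured 326.1, 304.2 and 237.0 CPM after hypergravity and 281.5, 354.7 and 332.0 CPM in the control libraries. Its groups overlapped, with the lowest value in hypergravity library 3 and the highest in control library 2. Hypergravity gave a fold change of 0.896 (95% interval 0.657 to 1.22, adjusted p = 0.758 in edgeR). The log2 fold change of Cpt1b, -0.16 with all libraries, was -0.03 without hypergravity library 3, -0.07 without control library 2 and -0.25 without control library 1, with adjusted p-values from 0.741 to 0.941 in edgeR.

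Cpt1a encodes the form best known from liver, which the fetal heart also uses. It measured 23.7, 33.8 and 17.6 CPM in hypergravity libraries 1, 2 and 3, and 17.5, 22.4 and 21.1 CPM in control libraries 1, 2 and 3. Hypergravity library 3 fell within the control range and the other two lay above it. Cpt1a had a fold change of 1.24 (95% interval 0.847 to 1.81, adjusted p = 0.599 in edgeR). The difference rested on single libraries in both directions. Without hypergravity library 2 the log2 fold change of Cpt1a was 0.04 instead of 0.31 (adjusted p = 0.968 in edgeR), and without hypergravity library 3 it was 0.50, with an unadjusted p-value of 0.0337 and an adjusted p-value of 0.281 in edgeR.

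The balance between the CPT1 forms can be read within a library, free of the scaling between libraries. Of the counts on both genes together, Cpt1a took 5.84% (exact binomial 95% interval 5.26 to 6.46), 5.95% (5.46 to 6.47) and 5.97% (5.58 to 6.38) in control libraries 1, 2 and 3. The control libraries thus lay inside each other's counting intervals. After hypergravity the share was 6.78% (6.39 to 7.19), 10.01% (9.63 to 10.4) and 6.91% (6.22 to 7.65) in libraries 1, 2 and 3. Each hypergravity library was above each control library, although the intervals of libraries 1 and 3 still touched those of controls, and library 2 stood clear of all the others. These intervals cover counting error only, and the shares are of counts, not of molecules, because gene length was not used.

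On the log2 scale the ratio of Cpt1a to Cpt1b counts averaged -3.99 ± 0.0182 (SD, n = 3) over the control libraries and -3.57 ± 0.346 (SD, n = 3) over the hypergravity libraries, which made it 1.34-fold higher. A two-sided exact permutation test gave p = 0.1, the smallest value that 3 libraries against 3 allow, and 0.3 after Benjamini-Hochberg adjustment over the 3 ratios compared. Without control library 1, 2 or 3 the same test gave an unadjusted p of 0.3 each time. The groups did not overlap for 11.3% of single genes in the higher direction and 10.5% in the lower. This share was not computed for ratios of genes. Without hypergravity library 2 the difference was 0.22 instead of 0.42. It was therefore smaller by a factor above 1.5, with the same direction.

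**Figure D2:**
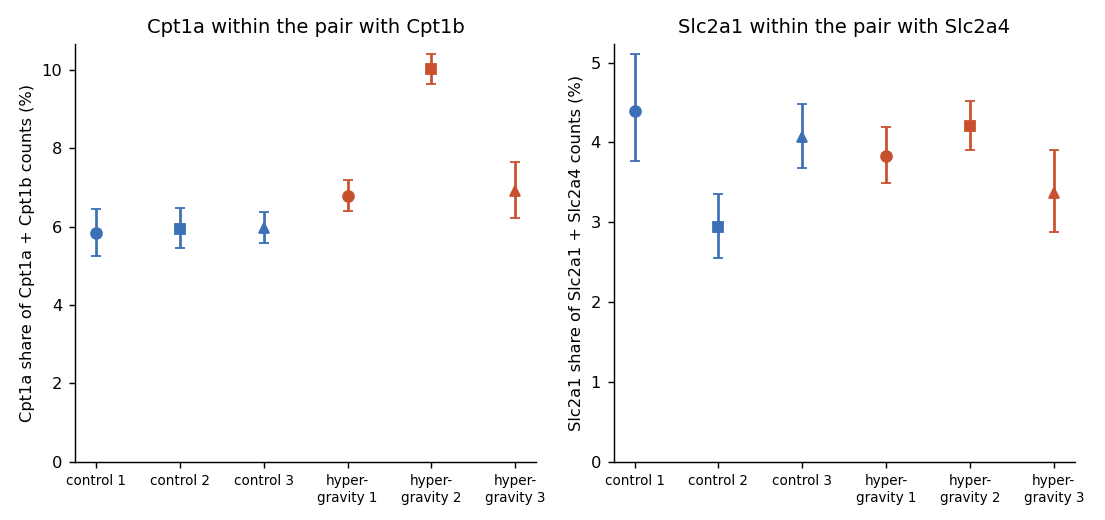
Share of Cpt1a in the counts on Cpt1a and Cpt1b (left, percent) and of Slc2a1 in the counts on Slc2a1 and Slc2a4 (right, percent) in each library, with exact binomial 95% intervals that cover counting error. The 3 control libraries lie between 5.84 and 5.97% for Cpt1a and the hypergravity libraries between 6.78 and 10.01%, while the Slc2a1 shares of the groups overlap.

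Ucp3 encodes an uncoupling protein of the mitochondrial inner membrane whose transcript follows fatty acid supply in muscle. Of the 9 genes it had the largest fold change, and its counts ran from 46 to 353 per library. These were the fewest of the 9 genes except in control libraries 1 and 2. There Slc2a1 had 165 and 203 counts against 175 and 224 for Ucp3. It measured 1.94, 5.10 and 2.34 CPM after hypergravity and 8.61, 9.82 and 1.54 CPM in the control libraries. Control libraries 1 and 2 were above all hypergravity libraries, and control library 3 was the lowest of the 6. The fold change was 0.483 (95% interval 0.176 to 1.32, adjusted p = 0.493 in edgeR), an interval that holds both a fall of several fold and a rise.

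The size of this difference rested on single libraries. Without control library 3 the log2 fold change of Ucp3 was -1.54 instead of -1.05, with an unadjusted p-value of 0.00612 and an adjusted p-value of 0.351 in edgeR. It was -1.62 without hypergravity library 2 and -0.62 without control library 2, with adjusted p-values of 0.624 and 0.760 in edgeR. Scaling and the test mattered as well, since the log2 fold change was -0.45 with library size alone and -0.51 in limma-voom (adjusted p = 0.803 in edgeR and 0.771 in limma-voom). Counting error in Ucp3 reached 30.1% of the value to either side in hypergravity library 3. Control library 3, at 1.54 CPM, differed by more than that from control libraries 1 and 2, at 8.61 and 9.82 CPM. Control libraries 1 and 2 differed from each other by less.

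Pdk4 encodes the kinase that switches off pyruvate dehydrogenase and so spares glucose when fatty acids are burned. Its level was 75.7, 113.9 and 100.8 CPM after hypergravity and 129.8, 124.5 and 42.5 CPM in the control libraries. The highest and the lowest values were both in control libraries, and the hypergravity libraries lay between them. The hypergravity mean was 96.8 ± 19.4 (SD, n = 3) and the control mean 98.9 ± 48.9 (SD, n = 3), a fold change of 0.979 (95% interval 0.528 to 1.82, adjusted p = 0.979 in edgeR). The interval holds changes in either direction, so 3 libraries per group did not settle the direction.

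Pdk4 and Ucp3 stood in nearly the same order across the libraries. For both genes control libraries 1 and 2 were highest, followed by hypergravity libraries 2, 3 and 1, and control library 3 was lowest. Pearson's r between their log2 CPM was 0.84 over the 6 libraries, as a description of libraries that share depth and scaling. The other 7 genes gave r from -0.54 (Slc2a1) to 0.03 (Cpt1a) with Pdk4, with Ppara at -0.40 and Ppargc1a at -0.16. Among all genes tested, 23 exceeded an r of 0.9 with Pdk4. The 3 highest, listed as ENSRNOG00000010090, ENSRNOG00000042059 and ENSRNOG00000002214, reached 0.97 each and are not paired with names in the files.

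**Figure D3:**
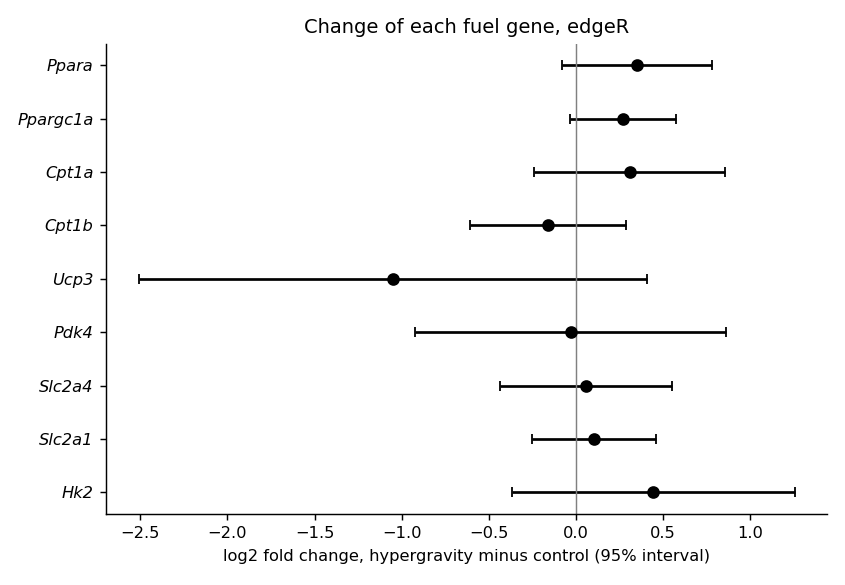
Log2 fold change of each fuel gene, hypergravity minus control, from edgeR with its 95% interval (n = 3 per group). Each interval includes 0, and it is widest for Ucp3 (-2.51 to 0.41) and narrowest for Ppargc1a (-0.03 to 0.57).

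On the glucose side, Slc2a4 encodes GLUT4, the insulin-responsive glucose transporter of heart and skeletal muscle. It measured 257.6, 231.0 and 242.3 CPM after hypergravity and 176.3, 294.2 and 232.8 CPM in the control libraries. The hypergravity libraries lay within the control range, with a coefficient of variation of 5.48% against 25.2%. The groups differed by a fold change of 1.04 (95% interval 0.739 to 1.46, adjusted p = 0.932 in edgeR). The direction depended on single control libraries, with a log2 fold change of -0.12 without control library 1 and 0.27 without control library 2 instead of 0.06.

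Slc2a1 encodes GLUT1, a transporter of basal glucose uptake that many cell types carry, including endothelial and red blood cells. Its level was 10.3, 10.1 and 8.44 CPM after hypergravity and 8.11, 8.90 and 9.87 CPM in the control libraries. The groups overlapped, and the fold change was 1.07 (95% interval 0.841 to 1.37, adjusted p = 0.800 in edgeR). The log2 fold change of Slc2a1 was 0.10, and it moved to 0.19 without hypergravity library 3, to 0.18 without control library 3 and to 0.04 without control library 1.

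Slc2a1 took from 2.94 to 4.4% of the counts on both transporters in the control libraries and from 3.37 to 4.21% after hypergravity. The log2 ratio of the pair differed by 0.02 between the groups, where its SD among the controls was 0.321. A two-sided exact permutation test gave p = 1, and 1 after adjustment over the 3 ratios.

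Hk2 encodes hexokinase 2, the insulin-responsive enzyme that traps glucose in the muscle cell as glucose 6-phosphate. It measured 46.8, 57.6 and 20.5 CPM in hypergravity libraries 1, 2 and 3 and 29.6, 24.02 and 38.6 CPM in control libraries 1, 2 and 3. Hypergravity libraries 1 and 2 were above all controls, and hypergravity library 3 was below all of them. The fold change was 1.36 (95% interval 0.774 to 2.38, adjusted p = 0.609 in edgeR). Without hypergravity library 3 the log2 fold change of Hk2 rose from 0.44 to 0.76, with an unadjusted p-value of 0.00880 and an adjusted p-value of 0.217 in edgeR. Without hypergravity library 2 it was 0.14 (adjusted p = 0.938 in edgeR).

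The levels of Hk2 and Slc2a1 followed library depth in a way that crossed the groups, a pattern singled out after the values were seen. In the 3 libraries above 30000000 counts Hk2 was between 38.6 and 57.6 CPM, and in the other 3 it was between 20.5 and 29.6 CPM. Slc2a1 was between 9.87 and 10.3 CPM in the first set and between 8.11 and 8.90 CPM in the second. For these 2 of the 9 genes the deeper libraries were all higher, as they were for 6.81% of all genes tested, and for 0 of the 9 they were all lower, beside 5.55% of all genes.

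The contrast was sharper in the ratio of Pdk4 to Hk2 counts, which needs no scaling. There were 1.62 and 1.98 Pdk4 counts per Hk2 count in hypergravity libraries 1 and 2 and 1.102 in control library 3. The shallower libraries gave 4.91 (hypergravity library 3), 4.39 and 5.18 (control libraries 1 and 2). The ratio thus separated the libraries by depth and by the share of the 10 most abundant genes, and it did not separate hypergravity from control (log2 difference -0.23, two-sided exact permutation test, p = 0.9, and 1 after adjustment over the 3 ratios). The part that depth, the abundant genes or the state of the cells had in it was not tested.

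Hk2 and Slc2a1 gave a Pearson's r of 0.84 between their log2 CPM over the 6 libraries. Both had been singled out for the same split of the libraries by depth, a choice that itself favours a high value. Cpt1a and both regulators varied along with Hk2 and Slc2a1. With Slc2a1, r was 0.77 for Cpt1a, 0.77 for Ppara and 0.72 for Ppargc1a, and with Hk2 it was 0.79, 0.56 and 0.68 for the same genes. Ppara gave 0.70 with Ppargc1a and 0.70 with Cpt1a, and Cpt1a gave 0.59 with Ppargc1a. Cpt1b reached 0.55 with Slc2a1 and 0.41 with Hk2, and Slc2a4 gave 0.39 and -0.10. These values describe 6 libraries that share depth, composition and scaling.

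**Figure D4:**
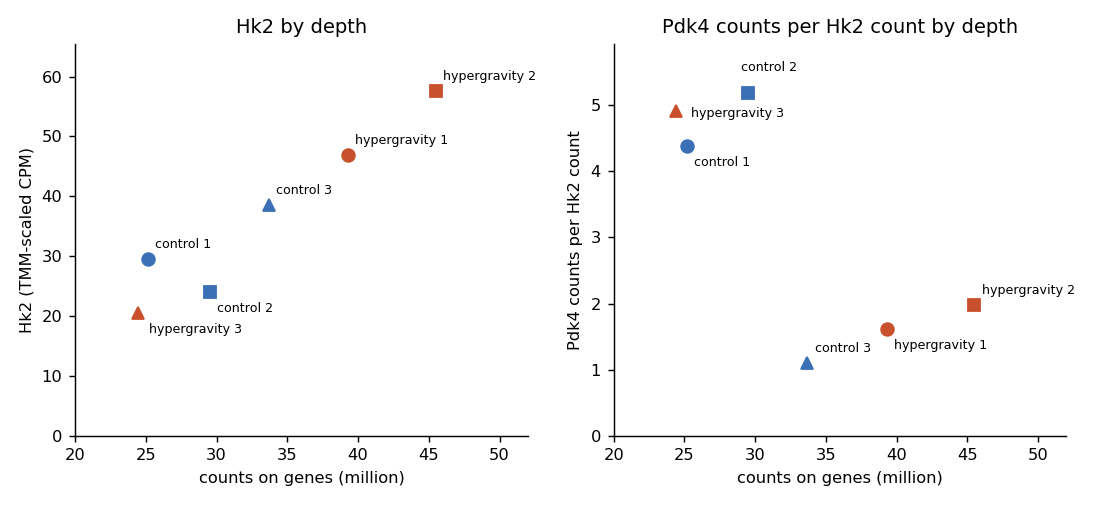
Hk2 in TMM-scaled CPM (left) and Pdk4 counts per Hk2 count (right) against the total counts on genes, with each point a library. The 3 libraries above 30000000 counts have Hk2 at 38.6 or more and from 1.102 to 1.98 Pdk4 counts per Hk2 count, and the other 3 have Hk2 at 29.6 or less and from 4.39 to 5.18.

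Within the sets above and below 30000000 counts the groups were compared again as values, with no test, at 2 libraries against 1. Depth still differed between the groups within a set. In the deeper set control library 3 had 33700736 counts against 39300316 and 45497422 after hypergravity, and in the shallower set hypergravity library 3 had 24440690 against 25151759 and 29500913 in the controls. Of the 9 genes, 4 had the same direction in both sets, as did 60.7% of the 11863 genes with counts in each library. Ppargc1a was 1.21-fold higher after hypergravity in the deeper set and 1.123-fold higher in the shallower set, and Ppara 1.07-fold and 1.34-fold higher. Slc2a4 was 1.048-fold and 1.06-fold higher, and Cpt1b was lower in both, at 0.949 and 0.750 of the control level.

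The remaining genes went in opposite directions. Pdk4 after hypergravity was at 2.18 times the control level in the deeper set and at 0.793 times in the shallower set. Ucp3 was at 2.04 times and 0.254 times, and Hk2 at 1.35 times and 0.770 times. Cpt1a was at 1.34 times and 0.889 times, although its share within the CPT1 pair was higher in the hypergravity libraries of both sets. Slc2a1 was near the control level in each set, at 1.03 times and 0.993 times.

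With the depth set as a term in the edgeR fit, the log2 fold change of Hk2 was 0.04 instead of 0.44, that of Ucp3 was -0.36 instead of -1.05, and that of Pdk4 was 0.41 instead of -0.03. Cpt1a was at 0.14 instead of 0.31, Slc2a1 at 0.02 instead of 0.10 and Cpt1b at -0.25 instead of -0.16. Ppargc1a was at 0.22 instead of 0.27, Ppara at 0.26 instead of 0.35 (adjusted p = 0.518 and 0.544 in edgeR) and Slc2a4 at 0.06 in both fits. This fit called 0 of the 11905 genes tested, so that 0 of 9 does not set the fuel genes apart. At an unadjusted p-value under 0.05 it gave 0 of 9, beside 7.53% of all genes higher and 5.43% lower.

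**Figure D5:**
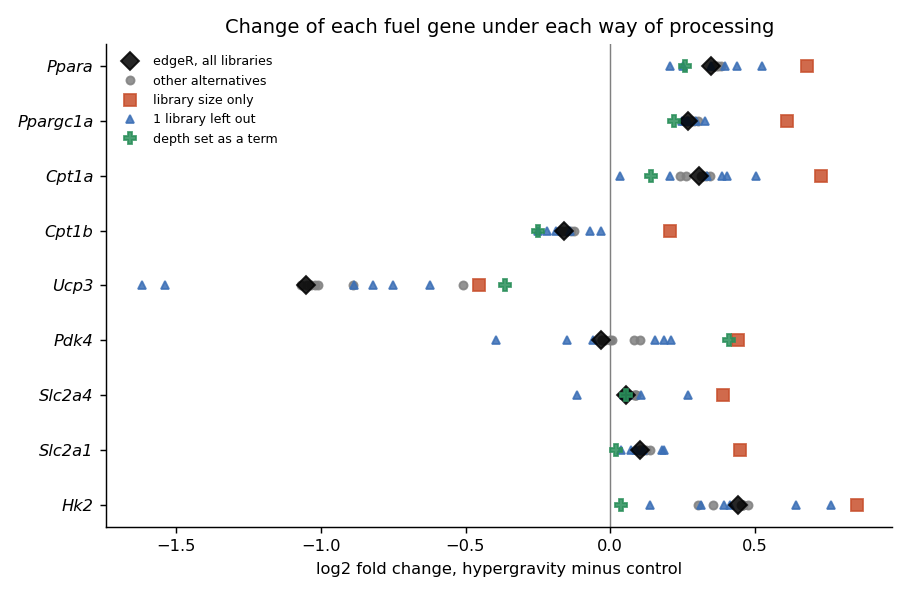
Log2 fold change of each fuel gene, hypergravity minus control, in edgeR with all libraries (diamonds), with library size as the only scaling (squares), with the depth set as a term (crosses), with 1 library left out (triangles) and under the other alternatives (circles). Ppara, Ppargc1a, Cpt1a, Slc2a1 and Hk2 are above 0 and Ucp3 is below 0 in each fit shown, and Pdk4 lies on either side of 0, from -0.39 to 0.44.

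Scaling shifted the whole panel. With library size as the only scaling, the median log2 fold change over all genes moved from -0.02 to 0.32, and Ucp3 was then the only 1 of the 9 genes below 0. The log2 fold changes of Hk2 (0.85), Cpt1a (0.73), Ppara (0.68) and Ppargc1a (0.61) lay farthest above that median, and those of Cpt1b (0.21) and Ucp3 (-0.45) lay below it. With this scaling edgeR called 0 genes higher and 1 lower of the 11905 tested, so that 0 of 9 does not set the fuel genes apart.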

How the data were processed

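RNA of isolated rat ventricular cardiomyocytes was sequenced after poly(A) selection. The deposited values are raw counts per gene, made by the authors with FastQC, Trimmomatic, HISAT2 and HTSeq on mRatBN7.2. The labels name a stranded library kit, whereas the paper citing the deposit, which describes simulated microgravity, names another kit and counting on exons without strand, so reads of overlapping genes may not be told apart. In the RefSeq table of the GRCr8 assembly, the span of Ppara overlaps Cdpf1, that of Cpt1a a long noncoding RNA and that of Ppargc1a a pseudogene. Whether exons overlap was not checked.

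The 5 summary categories of HTSeq were left out. Groups came from the sample titles. Counts were analysed with edgeR (version 4.0.16, R 4.3.3; filterByExpr, TMM, quasi-likelihood test, Benjamini-Hochberg adjustment, threshold 0.05) and DESeq2 (1.42.0); limma-voom (limma 3.58.1) was an alternative. Standard errors are the log2 fold change over the square root of F. Log2 CPM for correlations used a prior count of 2. The procedure was tested on simulated data whose changes were larger than those of the 9 genes. That test does not show whether smaller changes would be found.

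All 9 genes were named. They and the lists were chosen with earlier results of these data known. The ratios were compared by exact permutation. The lists of 96 pathway genes and 56 cell type markers were not analysed here, since the identifiers could not be matched, and no gene sequence was used here. The limit of 30000000 counts was chosen after seeing the data. The main comparison did not pair the libraries by replicate number. Deviations from the group means correlated at -0.47, -0.11 and 0.21 for numbers 1, 2 and 3. With 3 libraries per group that also differ in depth, these values cannot show whether the numbers pair the libraries.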

Additional observations from a re-analysis of the deposited data

Results flagged for a closer look

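Outside the gene counts, alignments beyond annotated exons averaged 3.08 ± 0.201% (SD, n = 3) of all listed alignments over the control libraries and 4.20 ± 0.179% (SD, n = 3) over the hypergravity libraries. This category is not used in the comparisons, and it was higher in 3 of 3 hypergravity libraries than in any control library; its part in the levels of the fuel genes was not tested.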

How the results depend on the processing

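Under each of the 15 alternatives, 0 of the 9 genes were called in either direction. This does not set them apart, since 6 of the alternatives called 0 of all genes tested and the others at most 4 higher and 11 lower, except DESeq2 (160 higher and 141 lower). Without adjustment, edgeR at p under 0.05 gave 1 of 9 higher (Ppargc1a) without the 10 most abundant genes, beside 8.65% of all genes, and with a mean of at least 1 CPM, beside 9.11%. Without hypergravity library 3 it gave 3 of 9 higher (Cpt1a, Ppargc1a and Hk2), beside 7.71% of all genes, and without control library 3 it gave 1 higher (Ppara), beside 5.34%, and 1 lower (Ucp3), beside 4.98%. The direction held in all 15 for Ppara, Ppargc1a, Cpt1a, Slc2a1, Hk2 and Ucp3. Pdk4, at -0.03, changed sign with limma-voom (0.083), library size alone (0.44), the 10 most abundant genes left out (0.0068), the replicate block (0.10) and the depth set as a term (0.41), and ran from -0.39 to 0.21 with each library left out. Cpt1b changed sign with library size alone (0.21). Slc2a4 ran from -0.12 to 0.27 with each library left out. The causes were not tested. The log2 ratio of Slc2a1 to Slc2a4 ran from -0.17 to 0.14 and that of Pdk4 to Hk2 from -0.93 to 0.19 with each library left out, while that of Cpt1a to Cpt1b kept its direction (0.22 to 0.53). With the replicate block 0 of the 9 genes and 0 of all genes tested were called, where the main fit called 4 of all genes lower. The alternatives for the pathway lists were not run. Counting error was between 1.35 and 30.1% of the value to either side across the 9 genes and 6 libraries, the largest for Ucp3.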
